A study of Saccharomyces cerevisiae with 4 samples.

Results

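The mitochondrial ribosome of budding yeast, Saccharomyces cerevisiae, is built in part from proteins that nuclear genes encode. Of the 6484 features in the deposited table, 60 belonged to a given list of such genes, picked by locus name, with earlier results of these data already known: 40 encode proteins of the large subunit (the MRPL genes, IMG1, IMG2, RML2, MRP7, MRP20 and MRP49) and 20 encode proteins of the small subunit (MRPS, MRP and RSM genes). All 60 were found in the table. RNA came from the strain labelled BGL-6Kl, called the parent here, and from a strain labelled with the same BGL-6Kl genotype plus ΔYGP1, called the strain labelled ΔYGP1. Each strain had 2 libraries, which the series calls biological replicates. Both strains were grown without treatment in YPD, a rich glucose medium, at 30 °C and 200 rpm for 48 h, a time chosen by the series because an activity named BGL had by then started to differ between BGL-6Kl and a strain it names BGL/ygp1Δ. The labels give no further alleles, and do not say whether a strain is 1 clone.

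Mitochondrial ribosomes make the few proteins that the mitochondrial genome encodes, most of them core subunits of the respiratory chain and ATP synthase. Their large subunit joins amino acids at the peptidyl transferase centre and passes the new chain through an exit tunnel, while the small subunit holds the messenger RNA and reads its codons. Many of their proteins have bacterial counterparts and others are found in mitochondria only. In yeast fermenting glucose, genes for respiration are repressed, and cells move towards respiration when glucose runs out.

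The deposited values were strain means of normalised read counts, to which the authors added a log2 fold change and an adjusted p for every feature. From these means the whole reads of single libraries could be solved for 6183 features in both strains, all 60 members among them. The recovered features held between 7322653 and 11256158 reads per library. Within a strain, library A is the one with the larger size factor and B the other; the letters do not stand for replicate 1 and 2. YGP1 itself was not at 0 in the strain labelled ΔYGP1, which goes against a complete loss of the transcript in both libraries of that strain. The authors' deposited table gave it a mean of 62470 in the parent and 18171 in that strain, or 29.1% of the parental level. Its reads in single libraries could not be solved, so whether 1 or both ΔYGP1-labelled libraries held them is not known. Directions given here are therefore between strains as labelled, and the part of the gene that was deleted is not given. In bulk RNA, fewer cells of a kind and less RNA per cell cannot be told apart.

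Genes for mitochondrial ribosomal proteins were more often higher than lower in the strain labelled ΔYGP1, and every member that passed the authors' test was higher. Of the 40 large subunit genes 16 rose, 0 fell and 24 did not pass at an adjusted p below 0.05 in the authors' deposited table. Of the 20 small subunit genes 5 rose, 0 fell and 15 did not pass. At an unadjusted p below 0.05 in the same table, 20 large and 8 small subunit genes were higher, and 0 and 1 lower. The share of all features at that unadjusted threshold was not computed, so these counts cannot be read against the table. The shares that follow are for the adjusted call. Over all listed features, 9.65% were called higher and 10.3% lower, against 40% and 25% called higher of the large and small subunit genes. The median log2 fold change was 0.67 for the large subunit and 0.45 for the small subunit, beside 0.04 for all listed features. The log2 fold changes of called members ran from 0.75 to 1.83, and 11 of the 21 called members were at least 2-fold higher. Of all 626 features called higher, 435 were at least 2-fold higher. Whether the subunits differed from each other was not tested.

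**Figure D1:**
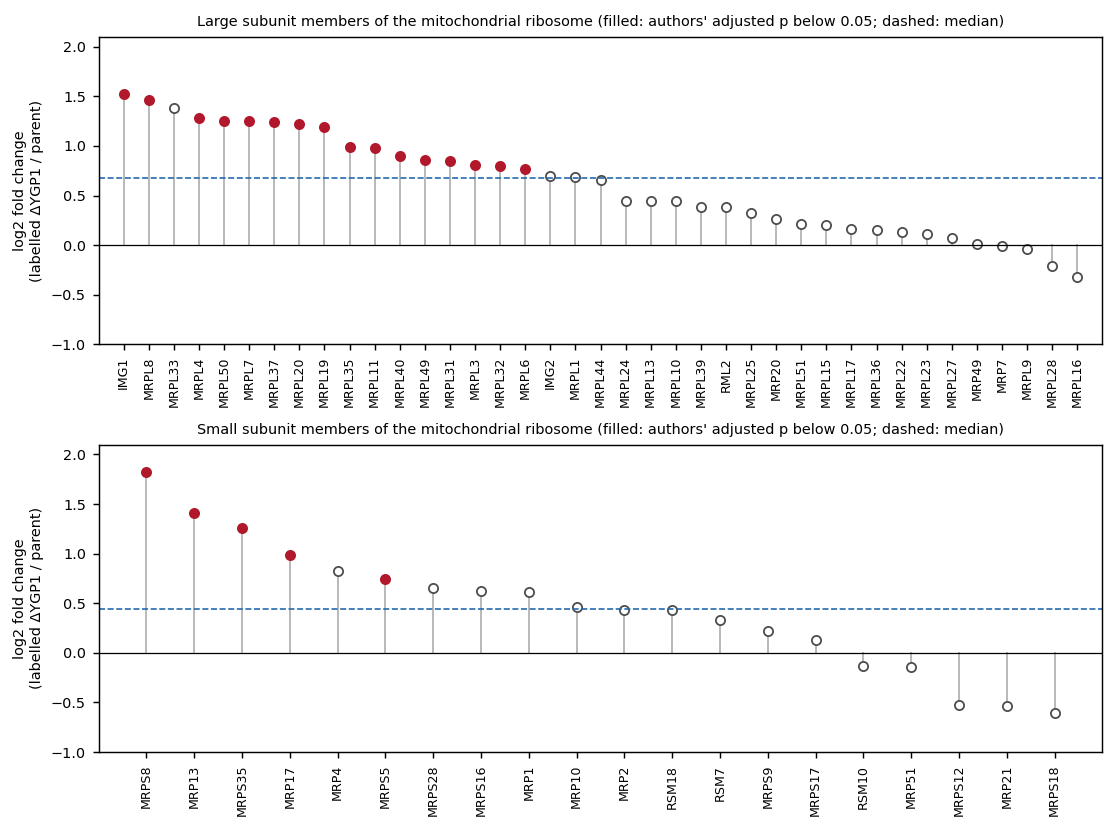
Log2 fold change of the strain labelled ΔYGP1 over the parent (y axis) for each large subunit member (upper panel, 39 members) and small subunit member (lower panel, 20 members) in the authors' deposited table; filled points have an adjusted p below 0.05, and dashed lines mark the medians of 0.67 and 0.45. MRPL38, listed at 0 in the parent, has no finite fold change and is not drawn. All filled points lie above 0, and the lowest member of each subunit, MRPL16 and MRPS18, lies at -0.32 and -0.60.

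The libraries behind these means were mostly separated by strain, as were those of all recovered features, of which 2092 of 6183 overlapped. Among the members, the separated libraries were mostly higher in the strain labelled ΔYGP1. In 27 large and 14 small subunit genes both ΔYGP1-labelled libraries lay above both parental libraries, and in 1 and 3 genes both lay below. The 27 include MRPL38, which had hardly any reads. The libraries overlapped in the other 12 and 3. Over all recovered features, 33.2% had both ΔYGP1-labelled libraries above the parental ones and 33.0% below. A fit of limma to the recovered libraries, which rests on the same reads and is no separate check, called 20 large and 6 small subunit genes higher at an adjusted p below 0.05, and 1 small subunit gene lower. In that fit 13.9% of 6115 features were called higher and 14.9% lower. Without parental library B the median log2 fold change was 0.60 for the large and 0.36 for the small subunit. Without ΔYGP1-labelled library A these medians were 0.58 and 0.35, and without ΔYGP1-labelled library B 0.74 and 0.46.

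The largest change among the large subunit genes that passed was that of IMG1 (YCR046C), which encodes bL19m, a protein with a bacterial counterpart. IMG1 had 1037 and 889 normalised reads in parental libraries A and B and 2950 and 2575 in ΔYGP1-labelled libraries A and B. It was 2.87-fold higher (log2 fold change 1.52, the authors' deposited table, adjusted p 5.94e-06; limma SE 0.21). Both ΔYGP1-labelled libraries stood far above both parental ones, and the strains did not overlap. MRPL8 (YJL063C), the gene of bL17m, followed with 1564 and 1263 in the parent and 4199 and 3601 in the strain labelled ΔYGP1, a 2.76-fold difference (the authors' deposited table, adjusted p 1.1e-05; limma SE 0.21). MRPL50 (YNR022C), the gene of bL9m, was 2.38-fold higher, with 572 and 487 against 1468 and 1055 (the authors' deposited table, adjusted p 0.00297; limma SE 0.23). For each of these genes the lower ΔYGP1-labelled library was above the higher parental one.

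The 4 genes grouped here for proteins at the mouth of the exit tunnel, where the new chain leaves the ribosome, were split. The group may leave out other proteins near this mouth. MRPL4 (YLR439W, uL29m) had 1270 and 1057 in the parent and 3131 and 2524 in the strain labelled ΔYGP1, 2.43-fold higher (the authors' deposited table, adjusted p 0.000152; limma SE 0.21). MRPL40 (uL24m) had 1139 and 989 against 2087 and 1889 (log2 fold change 0.90, the authors' deposited table, adjusted p 0.0129). These genes rose, with no overlap between strains. Over all features 9.65% were called higher, and 33.2% of recovered ones had both ΔYGP1-labelled libraries above both parental ones. The other genes of this group, MRP20 (uL23m) and MRPL22 (uL22m), did not pass. Their log2 fold changes were 0.27 and 0.14 (the authors' deposited table, adjusted p 0.552 and 0.733). MRP20 was the large subunit gene with the most reads, with 5593 and 4793 in the parent and 6694 and 5792 in the strain labelled ΔYGP1.

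None of the 4 genes for proteins close to the peptidyl transferase centre passed. Most listed features, 5188 of 6484, did not pass either. MRP7 (bL27m) had 3519 and 3475 in the parent and 4102 and 2860 in the strain labelled ΔYGP1, so that the parental values lay between those of the strain labelled ΔYGP1 (log2 fold change -0.01, the authors' deposited table, adjusted p 0.966). MRPL9 (uL3m) had 797 and 760 against 940 and 574 (log2 fold change -0.04, the authors' deposited table, adjusted p 1). RML2 (uL2m) had a log2 fold change of 0.38 (the authors' deposited table, adjusted p 0.402). MRPL16 (YBL038W, uL16m) was the large subunit gene with the lowest fold change, 3343 and 3322 in the parent and 2702 and 2649 in the strain labelled ΔYGP1 (log2 fold change -0.32, the authors' deposited table, adjusted p 0.485). It was also the only large subunit gene with both ΔYGP1-labelled libraries below both parental ones. Whether this group differed from the rest of the subunit was not tested.

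Of the 3 genes grouped here for the stalks, the flexible arms of the large subunit, 2 rose, beside 9.65% called higher over all features. The group may leave out other stalk proteins. MNP1, a further mitochondrial ribosome gene outside the members, is not in it and did not pass (log2 fold change 0.19, the authors' deposited table, adjusted p 0.815). MNP1 had 164 and 98 in the parent and 169 and 131 in the strain labelled ΔYGP1, and the strains overlapped. MRPL19 (YNL185C, uL11m) had 352 and 383 in the parent and 907 and 778 in the strain labelled ΔYGP1 (log2 fold change 1.20, the authors' deposited table, adjusted p 0.00129; limma SE 0.22). In the R64 reference annotation, whose build may not be the authors', it overlaps the gene YNL184C on the same strand over 23.7% of its length, and YNL184C was listed with means of 0 and 7.56, so which gene the reads in the overlap came from cannot be told apart. MRPL11 (uL10m) had 677 and 692 against 1546 and 1158 (log2 fold change 0.98, the authors' deposited table, adjusted p 0.00554). MRPL1 (uL1m), at a log2 fold change of 0.69, did not pass (the authors' deposited table, adjusted p 0.0735). Its ΔYGP1-labelled libraries, at 1470 and 1274, were nonetheless both above the parental 898 and 808.

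In the central protuberance, the crest of the large subunit that faces the small one, MRPL7 and MRPL35 rose among 5 genes. Over all features 9.65% were called higher. MRPL7 (YDR237W, uL5m) had 713 and 641 in the parent and 1830 and 1389 in the strain labelled ΔYGP1, 2.38-fold higher (the authors' deposited table, adjusted p 0.000306; limma SE 0.22). MRPL35 (mL38), a protein specific to mitochondria, had a log2 fold change of 0.99 (the authors' deposited table, adjusted p 0.0168). MRPL17 (mL46), MRPL36 (bL31m) and MRPL28 (mL40) had log2 fold changes of 0.17, 0.16 and -0.21 and did not pass.

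Genes that rose included both proteins specific to mitochondria and proteins with bacterial counterparts. Of all 15 mitochondria-specific large subunit genes 5 rose, and of the 25 with bacterial counterparts 11 rose, with medians of 0.44 and 0.77 on the log2 fold change scale. These counts are 33.3% and 44% of their groups, beside 9.65% called higher over all features. MRPL37 (YBR268W, mL54) had 889 and 802 in the parent and 1973 and 2018 in the strain labelled ΔYGP1, 2.36-fold higher (the authors' deposited table, adjusted p 0.000458; limma SE 0.20). MRPL20 (YKR085C, mL58) had 459 and 438 against 1108 and 988, 2.34-fold higher (the authors' deposited table, adjusted p 0.000807; limma SE 0.21). In both genes the ΔYGP1-labelled libraries were at least 2-fold above the higher parental library. MRPL31 (mL60) and MRPL3 (mL44) rose with log2 fold changes of 0.85 and 0.80. MRP49 (mL61) was nearly level, with 1318 and 1257 in the parent and 1378 and 1225 in the strain labelled ΔYGP1 (log2 fold change 0.02, the authors' deposited table, adjusted p 0.983).

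MRPL33 (YMR286W), the gene of uL30m, had the third highest finite log2 fold change of the large subunit, 1.38, but did not pass the authors' test (the authors' deposited table, adjusted p 0.0835). Its values were 1366 and 940 in the parent and 2261 and 3759 in the strain labelled ΔYGP1. Both ΔYGP1-labelled libraries were higher than the parental ones, and library B was above library A by 0.73 on the log2 scale, the widest gap in that direction among the 58 members with 50 or more reads per library. The limma fit, which borrows its spread from all features, gave MRPL33 an adjusted p of 0.00546. The remaining called genes of the large subunit, MRPL6, MRPL32 and MRPL49, had log2 fold changes between 0.77 and 0.86. Close to the threshold of 0.05, MRPL32 was inside it with an adjusted p of 0.0486 and IMG2 outside it with 0.0641 in the authors' deposited table.

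In the small subunit, MRPS8 (YMR158W) had the largest fold change of all members with a parental mean above 0. It encodes uS8m, a protein of the body of the subunit that binds its ribosomal RNA in bacteria. MRPS8 had 243 and 225 normalised reads in the parent and 943 and 719 in the strain labelled ΔYGP1, 3.55-fold higher (log2 fold change 1.83, the authors' deposited table, adjusted p 4.99e-07; limma SE 0.24). It had the lowest parental count of the small subunit genes. MRP13 (YGR084C), which encodes mS44, had 1032 and 796 in the parent and 2722 and 2126 in the strain labelled ΔYGP1, 2.65-fold higher (the authors' deposited table, adjusted p 3.03e-05; limma SE 0.23). MRPS35 (YGR165W), which encodes mS45, had 1074 and 1046 against 2941 and 2150, 2.40-fold higher (the authors' deposited table, adjusted p 0.00103; limma SE 0.22). The lower ΔYGP1-labelled library of each of these genes was above the higher parental library.

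MRP17 (YKL003C), the gene of bS6m on the platform of the subunit, had 1403 and 1139 in the parent and 2830 and 2199 in the strain labelled ΔYGP1 (log2 fold change 0.98, the authors' deposited table, adjusted p 0.00477). MRPS5 (YBR251W), the gene of uS5m, had 901 and 830 against 1558 and 1344 (log2 fold change 0.75, the authors' deposited table, adjusted p 0.0481). These 5 were the small subunit genes that rose. MRP4, the gene of uS2m, was just outside the threshold with 1497 and 1490 in the parent and 3142 and 2162 in the strain labelled ΔYGP1 (log2 fold change 0.83, the authors' deposited table, adjusted p 0.0571). In R64 it overlaps YHL005C, on the opposite strand, by 2 bases. All 4 mitochondria-specific small subunit genes, MRP1, MRP10, MRP13 and MRPS35, had both ΔYGP1-labelled libraries above both parental ones. The same held for 10 of the 16 small subunit genes with bacterial counterparts and for 33.2% of all recovered features. In the large subunit it held for 8 of 15 mitochondria-specific genes and 19 of 25 with bacterial counterparts.

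The small subunit also held the genes with the lowest fold changes. MRPS18 (YNL306W), the gene of uS11m on the platform, had 1557 and 1454 in the parent and 1014 and 966 in the strain labelled ΔYGP1, 1.52-fold lower by the means (the authors' deposited table, adjusted p 0.131). The limma fit called MRPS18 lower with an adjusted p of 0.0429 and a log2 fold change of -0.60 (SE 0.20). That call was lost without parental library A (limma adjusted p 0.248), parental library B (0.199) or ΔYGP1-labelled library B (0.0553), under scaling by total reads (0.111) and with no intensity trend (0.0936). MRP21, the gene of bS21m, had 1402 and 1316 against 917 and 960 (log2 fold change -0.53, the authors' deposited table, adjusted p 0.188). MRPS12, the gene of uS12m, which in bacteria lies at the site where codons are read, had 5957 and 5319 against 4765 and 3087 (log2 fold change -0.52, the authors' deposited table, adjusted p 0.235). In these 3 genes both ΔYGP1-labelled libraries were below both parental libraries, yet none passed the authors' test. MRPS17 (uS17m), RSM10 (uS10m) and MRP51 (bS1m) were closest to 0, with log2 fold changes of 0.13, -0.13 and -0.14. Their adjusted p values in the authors' deposited table lay between 0.779 and 0.882.

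**Figure D2:**
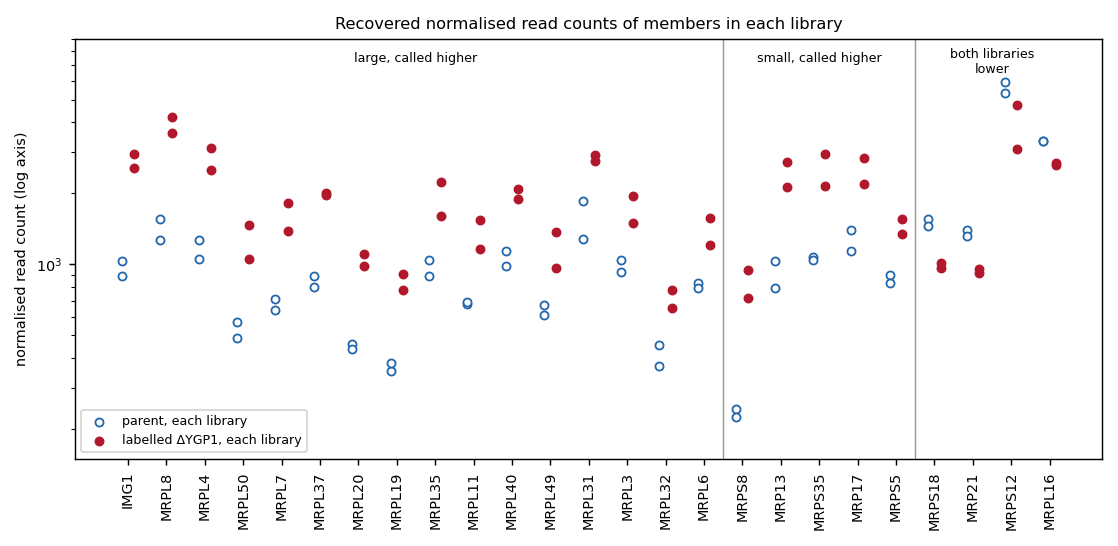
Normalised read counts recovered for each library (y axis, log axis) of the 21 members called higher, large subunit first, and of the 4 members in which both ΔYGP1-labelled libraries were below both parental ones; open points are the 2 parental libraries and filled points the 2 ΔYGP1-labelled libraries. In each of the 21 called genes the filled points lie above the open ones, from MRPS8 at 225 and 243 in the parent to MRPL8 at 3601 and 4199 in the strain labelled ΔYGP1.

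The other uncalled small subunit genes, MRPS9, MRPS16, MRPS28, MRP1, MRP2, MRP10, RSM7 and RSM18, had log2 fold changes between 0.22 and 0.65. Each had both ΔYGP1-labelled libraries above both parental ones, beside 33.2% of all recovered features. Among them MRPS16 (bS16m) and RSM18 (bS18m) had ΔYGP1-labelled library B above A, at 3435 and 4951 and at 2897 and 3425.

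The libraries of 1 strain differed in a shared way across the members. Among 58 members with at least 50 reads in each library, ΔYGP1-labelled library A was above library B in 51, with a median log2 difference of 0.31. Over all 5266 features with that many reads the share was 57.6% and the median 0.08. Parental library A was above B in 48 of the 58 members, with a median log2 difference of 0.14, against 51.0% and 0.01 of all features. The part of this shared gap between libraries in the strain differences was not tested. The summed normalised reads of the large subunit were 52939 and 47565 in the parent and 78968 and 66432 in the strain labelled ΔYGP1. Those of the small subunit were 49288 and 45903 against 58414 and 52867. In both subunits the strains did not overlap. RSM10 alone made up 27.8% and 27.3% of the small subunit sum in the parent and 19.2% and 24.1% in the strain labelled ΔYGP1. Leaving RSM10 out, the small subunit sums were 35599 and 33354 in the parent and 47187 and 40125 in the strain labelled ΔYGP1.

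Messenger levels differed widely between the genes. Per kb of coding sequence in R64, the parental means of 58 members ran from 501 normalised reads for MRPS8 to 21438 for RSM10, a 42.8-fold range. In the strain labelled ΔYGP1 they ran from 934 for MRPL9 to 19583 for RSM10, a 20.97-fold range. The level of RSM10 per kb ranked first in both strains, followed in the parent by MRPS12, MRPS16 and MRPL39 at 12204, 7452 and 6986. In the strain labelled ΔYGP1 MRPL33, MRPS16 and MRPL39 followed, at 11533, 11456 and 9110. The middle range of the members, from the first to the last quartile of the level per kb, spanned 3.19-fold in the parent and 2.82-fold in the strain labelled ΔYGP1. MRPS8 moved from the lowest level per kb of the 58 genes in the parent to rank 44. MRPL9 moved from rank 47 to 58, the lowest. MRPL38 and MRPL51, with hardly any reads, were left out of these ranges.

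**Figure D3:**
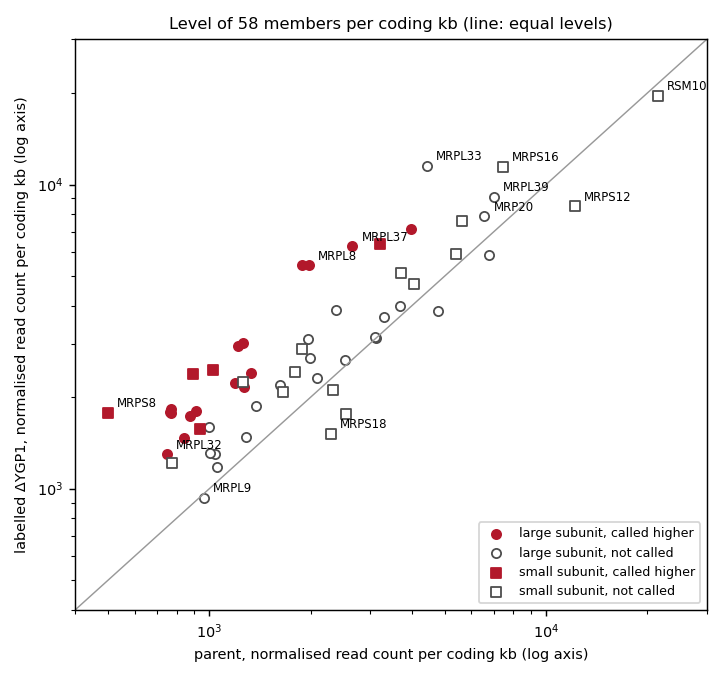
Mean normalised read count per coding kb in the parent (x axis) and the strain labelled ΔYGP1 (y axis), both log axes, for 58 members; circles are large and squares small subunit genes, filled where called higher, and the line marks equal levels. Filled points lie above the line, while RSM10 and MRPS12, the highest in the parent at 21438 and 12204, lie below it.

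Calls were most frequent among the members with the lowest counts. Ordered by the mean of both strains, 10 of the 20 lowest of the 58 genes rose, 8 of the next 19 and 3 of the highest 19. The medians of the log2 fold change were 0.72, 0.46 and 0.27 in that order. Over all features with a mean of at least 200, 10.9% were called higher. Shares of all features in the same 3 ranges of level were not computed, so whether this order is particular to the members cannot be told. Across the 58 genes, the log2 fold change had a Pearson correlation of -0.26 and a Spearman correlation of -0.26 with the log2 level per kb. Within the 38 large subunit genes these were -0.09 and -0.08, and within the 20 small subunit genes -0.42 and -0.51. These points share the 4 libraries, and the level includes both strains that enter the fold change. Over 4650 coding features with a mean of at least 200 the same correlations were -0.15 and -0.13. With coding length the correlation across the 58 members was 0.00 by either measure.

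MRPL38 and MRPL51 had hardly any reads in either strain. MRPL38, the gene of uL14m, was listed at 0 in the parent and had 5 and 4 reads in the ΔYGP1-labelled libraries. Its normalised mean of 4.73 was 3.31 times a floor set at 3 reads over both parental libraries. With so few reads this ratio is no lower bound, and MRPL38 did not pass (the authors' deposited table, adjusted p 0.392). MRPL51, the gene of mL43, had 23.4 and 14.5 normalised reads in the parent and 27.6 and 16.3 in the strain labelled ΔYGP1 (log2 fold change 0.21, the authors' deposited table, adjusted p 0.916). The lowest mean of both strains among the other 58 members was 533. In R64 the opposite strand of MRPL51 carries YPR099C over 76.4% of the gene, and YPR099C is not analysed here. No R64 gene overlaps MRPL38. However, 615 of the 6484 listed features have no match in R64, and overlaps with these were not checked. The part of read assignment in these low values was not tested.

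Among 20 further genes for proteins of the mitochondrial ribosome, outside the 60 members, 3 rose and 1 fell (median log2 fold change 0.19). These are 15% and 5% of the list, beside 9.65% and 10.3% of all features. MHR1 had 1590 and 1468 in the parent and 3826 and 3135 in the strain labelled ΔYGP1 (the authors' deposited table, adjusted p 0.000424). RSM25 and RSM19, both small subunit genes, were 2.12-fold and 1.99-fold higher (the authors' deposited table, adjusted p 0.00333 and 0.00409). EHD3, whose product is found with the small subunit and is also known as an enzyme of valine breakdown, fell from 2416 and 2329 to 1532 and 960 (the authors' deposited table, adjusted p 0.0163). VAR1, the ribosomal protein gene kept in the mitochondrial genome and named after its values were seen, had 6 reads in the parent, all in library B, and 1 in the strain labelled ΔYGP1.

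Several genes of the enzymes that charge mitochondrial transfer RNAs rose. Of 13 mitochondrial aminoacyl-tRNA synthetase genes 7 rose and 6 did not pass, with a median log2 fold change of 1.48. The 7 are 53.8% of the list, beside 9.65% called higher over all features. ISM1, which charges isoleucine transfer RNA, had 394 and 369 in the parent and 2260 and 1808 in the strain labelled ΔYGP1, 5.33-fold higher (the authors' deposited table, adjusted p 5.91e-13). MSK1, MSE1 and NAM2, for lysine, glutamate and leucine, were 3.90-fold, 3.77-fold and 3.62-fold higher (the authors' deposited table, adjusted p 1.11e-09, 8.47e-07 and 3.15e-08). In all of these the strains did not overlap.

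Of 11 translation factor genes 5 rose and 6 did not pass, with a median log2 fold change of 0.81. The 5 are 45.5% of the list, beside 9.65% called higher over all features. MEF1, a mitochondrial elongation factor G, had 1281 and 1177 in the parent and 6298 and 5327 in the strain labelled ΔYGP1, 4.73-fold higher (the authors' deposited table, adjusted p 2.62e-12). IFM1, the mitochondrial initiation factor 2, had 516 and 480 against 1956 and 2368, 4.34-fold higher (the authors' deposited table, adjusted p 5.4e-10). MRF1, a release factor, and GUF1, a translation factor related to bacterial LepA, were 3.19-fold and 2.38-fold higher (the authors' deposited table, adjusted p 0.000118 and 0.00125).

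Counts of called translational activators and assembly factors are read against 9.65% called higher and 10.3% lower over the table. Among 18 genes for translational activators and related factors, MSS51, needed to translate COX1, rose 2.63-fold (the authors' deposited table, adjusted p 1.72e-05). AEP1, needed for the ATP9 messenger, fell 1.88-fold (the authors' deposited table, adjusted p 0.013). Each is 5.56% of the list. Of 13 genes for assembly, ribosomal RNA modification and membrane attachment, PUS5 and MTG3 rose 1.99-fold and 1.74-fold, 15.4% of the list. Of 8 genes for transcription and upkeep of the mitochondrial genome, the RNA polymerase gene RPO41 rose with a log2 fold change of 0.92 and the DNA polymerase gene MIP1 fell with -0.81. Both ribosomal RNAs of the mitochondrial ribosome, named after their values were seen, did not pass. The 15S RNA had 217 and 2227 in the parent and 179 and 395 in the strain labelled ΔYGP1, and the 21S RNA had 803 and 5069 against 2810 and 4446. For both RNAs parental library B was far above library A, and the strains overlapped.

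Of 11 genes for regulators of ribosomal or mitochondrial genes 3 fell and 8 did not pass. The 3 are 27.3% of the list, beside 10.3% called lower over all features. SFP1 and RAP1, activators of cytosolic ribosomal protein genes, had log2 fold changes of -0.94 and -0.97, and ROX1, a repressor of genes used at low oxygen, fell 3.43-fold (the authors' deposited table, adjusted p 0.0126, 0.00557 and 1.22e-07).

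**Figure D4:**
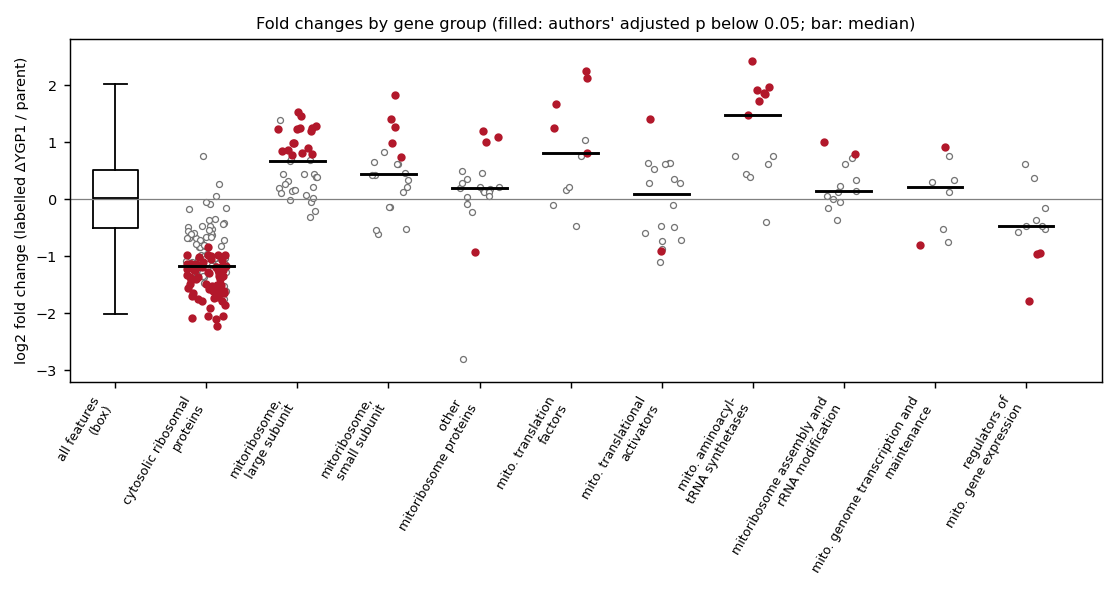
Log2 fold change of the strain labelled ΔYGP1 over the parent (y axis) by gene group; points are genes, filled where the authors' adjusted p was below 0.05, bars are medians, and the box at the left spans the quartiles of all features with whiskers to 1.5 times that range. The medians run from -1.17 for cytosolic ribosomal protein genes through 0.45 and 0.67 for both mitochondrial subunits to 1.48 for the synthetases.

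Cytosolic ribosomal protein genes, which build the separate ribosome of the cytosol, were mostly lower in the same table. Of 136 such genes 67 fell, or 49.3%, and 69 did not pass, with a median log2 fold change of -1.17. Of the 60 mitochondrial members 21 rose, or 35%, and 0 fell, with a median of 0.54. Over all listed features 9.65% were called higher and 10.3% lower. In 124 of the 136 cytosolic genes both ΔYGP1-labelled libraries lay below both parental ones, beside 33.0% of all recovered features. The same held for 4 of the 60 mitochondrial genes. Both counts come from the same 4 libraries and the same size factors, and the difference between the lists was not tested.

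Neighbouring genes did not always share a direction. MRPS12 and RSM19 lie next to each other on the same strand in R64, and the log2 fold change of MRPS12 was -0.52 while RSM19 rose 1.99-fold. DSS1 and MRX14, neighbours of other members, were named after their values were seen. MRPL33 and DSS1, a subunit gene of the mitochondrial RNA degradation complex, point towards each other and had log2 fold changes of 1.38 and 0.76, neither of which passed. MRPL1 and MRX14, a further large subunit gene, also point towards each other and had log2 fold changes of 0.69 and 0.19.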

How the data were processed

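RNA from 2 strains with 2 libraries each was sequenced. The sources used here do not name the aligner, counter, genome build, strand setting or test. Per the file headers the authors deposited a read count per strain, a normalised signal that the values show to be the mean of both libraries after division by size factors. The deposited log2 fold change equals the log2 ratio of these means to within 5e-05. The authors' p-value and adjusted p-value were used as deposited. A call means an adjusted p below 0.05.

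Each mean was solved for whole reads of both libraries (98.2% of features unique in the parent, 95.6% in the strain labelled ΔYGP1; size factors 1.155 and 0.9636, and 1.125 and 0.7968). When 3688 parental and 3775 ΔYGP1-labelled means were moved off this grid, 0.0271% and 0.106% had a solution. These were the lower means of the table, and higher ones were not checked in this way. The alternative test, limma 3.58.1 (R 4.3.3), used log2(normalised read count + 1), which understates the change of low features, and a minimum mean of 1, with an intensity trend and Benjamini-Hochberg adjustment over 6115 features. Features with no residual spread were left out. Limma was also tested on 6108 features simulated independently with a dispersion of 0.02. It called 93% of 2-fold and 100% of 4-fold changes, with 8 of 201 calls false. The simulation held no gap shared between genes and far fewer changes than limma called in the real libraries, so these rates may not hold there. No exact permutation test was run, since 2 against 2 libraries allow no p under 0.333.

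R64 (5869 features matched) served for names, coding lengths, neighbours and overlaps only. Any member could be named; full values were due to called members (up to 8 per subunit and direction by fold change), the 3 nearest 0 per subunit and the extremes per kb. Genes of 7 related lists were named where called (up to 4 each). Further full values were chosen after they were seen. Members and lists were chosen with earlier results of these data known. MTF2 and NAM1 name 1 gene, YDL044C, counted in the factor and activator lists. Counting of near-identical copies and antisense reads is not given.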

Additional observations from a re-analysis of the deposited data

How the results depend on the processing

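No paired analysis was possible because the recovered libraries carry no replicate numbers. Large subunit genes called higher numbered 16 and moved to 9 at an adjusted p below 0.01, 8 with a 2-fold minimum and 9 in limma with no intensity trend, and ranged from 10 to 25 in limma with 1 library left out. Small subunit genes called higher numbered 5 and moved to 3 with a 2-fold minimum, 3 with no intensity trend and 9 when scaled by total recovered reads, and ranged from 3 to 8 with 1 library left out. Small subunit genes called lower numbered 0 and became 1 in limma, also with a pseudocount of 4, with no filter on low features and with a mean of at least 10 (chosen after the data were seen), and ranged from 0 to 2 with 1 library left out. The cause was not tested. Large subunit genes called lower numbered 0 in each setting. The median log2 fold change of the large subunit ranged from 0.58 to 0.80 and that of the small subunit from 0.35 to 0.57 over the settings tried, total scaling included, which raised the median of all features to 0.13. Limma kept 21 of the authors' 21 member calls, 11 with no intensity trend, and with 1 library left out 12 (parental B), 17 (ΔYGP1-labelled A), 18 (parental A) and 21 (ΔYGP1-labelled B). No called member changed direction in any setting run.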
